A study of Mus musculus with 9 samples.

Results

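Integrins are the receptors by which cells hold to the matrix around them, and laminins are the chief adhesive proteins of the basement membranes that wrap smooth muscle cells and underlie the endothelium. Their genes were read here in aortic RNA of mice, as the subunits named Itga followed by a number or by d, e, l, v or x, Itgb followed by a number, and Lama, Lamb or Lamc followed by a number. That rule found 35 genes among the 37668 in the table, 24 integrin subunits and 11 laminin chains. Itga2b and Itgam fall outside it. Of the 35, 25 genes (17 integrin subunits and 8 laminin chains) had at least 1 FPKM in at least 1 group, among 14227 genes that did so. FPKM, a count of fragments set against transcript length and against all mapped fragments, puts genes and groups on a common scale only roughly. The groups, described next, had unequal totals: Cdh5Cre aorta summed to 607867, Sm22Cre aorta to 500015 and floxed aorta to 495724 FPKM.

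The aortas came from 9 male mice aged 90 days of the background labelled 129T2SvEmsJ:C57Blk/6J, and all 9 carried floxed alleles of AT1ar (Agtr1a, the angiotensin II type 1a receptor). The 3 floxed mice had no Cre transgene. The 3 Cdh5Cre mice also carried Cdh5-Cre, driven from the promoter of an endothelial cadherin gene, and the 3 Sm22Cre mice carried Sm22-Cre, driven from the promoter of Tagln (Sm22), which is active in smooth muscle. The series title names Marfan syndrome, while the labels give no Marfan allele for any group. The table used here holds 1 value per gene and group, in which the authors had already combined 3 libraries. The spread between mice and the sequencing depth are therefore unknown, no difference below has a replicate check, and none was tested. Differences are given as plain ratios of FPKM and as log2 ratios on log2(FPKM + 1), which understate differences of genes near 1 FPKM. A ratio of 1.5-fold on that scale (0.58 in log2 units) was the limit past which a gene was called higher or lower.

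An integrin is a pair of 1 alpha and 1 beta subunit, each crossing the membrane once and ending in a tail inside the cell. The alpha subunit largely sets which ligand is bound: fibronectin and other proteins with an Arg-Gly-Asp site, collagen, laminin, or counter-receptors on other cells. The beta tail binds talin and kindlin, which link the receptor to actin. A laminin is a trimer of 1 alpha, 1 beta and 1 gamma chain joined in a coiled coil. In the vessel wall the alpha4 and alpha5 chains are known from the endothelial basement membrane, and smooth muscle cells lie in laminin of their own.

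The tails carry the sequences that define the family. All 16 alpha subunits of the list, translated from the GENCODE M21 coding sequences, held Gly-Phe-Phe among their last 80 residues, next to the membrane, where the alpha and beta tails clasp each other in the resting receptor. In 13 of the 16, Lys or Arg and then Arg follow it. The other 3 are Itga8, Itga10 and Itga11, so the most abundant alpha subunit of this aorta is one of the exceptions. The coding bases around this site are shown for the 3 alpha subunits with the lowest and the 3 with the highest Cdh5Cre to floxed log2 ratios among those at 1 FPKM or more, in that order, with the Gly-Phe-Phe codons in capitals:
Itga8: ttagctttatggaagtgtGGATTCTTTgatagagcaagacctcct
Itga1: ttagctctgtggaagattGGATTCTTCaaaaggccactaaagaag
Itga9: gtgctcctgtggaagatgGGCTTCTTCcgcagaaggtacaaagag
Itga5: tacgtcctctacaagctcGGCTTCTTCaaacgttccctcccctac
Itga11: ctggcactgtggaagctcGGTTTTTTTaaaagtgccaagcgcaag
Itga6: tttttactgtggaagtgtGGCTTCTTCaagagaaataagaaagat

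Each of these windows crosses an exon junction, and in all 16 alpha subunits the junction lies 3 bases before the Gly codon. In GRCm38 the windows span chr2:12109172-12110989 on the minus strand for Itga8 (exons 29 and 30 of 30), chr13:114960105-114965612 on the minus strand for Itga1 (exons 28 and 29 of 29), and chr9:118887869-118897263 on the plus strand for Itga9 (exons 27 and 28 of 28). They span chr15:103345323-103345966 on the minus strand for Itga5 (exons 29 and 30 of 30), chr9:62782035-62782657 on the plus strand for Itga11 (exons 29 and 30 of 30), and chr2:71849492-71853563 on the plus strand for Itga6 (exons 24 and 25 of 26). The offset of the junction from the Gly codon is thus shared, while the exon is not: 5 of the 6 windows reach into the last exon and that of Itga6 does not.

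The beta tails differ more. Asn-Pro-x-Tyr, a docking site of talin (x being any residue), was found among the last 70 residues of 5 of 8 beta subunits. It was not found there in Itgb2, Itgb4 or Itgb8. Only this stretch and this exact pattern were searched, so a site further from the end or in another form would be missed. For the most abundant pair of beta subunits, the coding bases around the first such site are, with its codons in capitals:
Itgb1: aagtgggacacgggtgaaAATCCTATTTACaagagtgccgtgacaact
Itgb5: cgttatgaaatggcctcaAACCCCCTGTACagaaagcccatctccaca

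These windows span chr8:128726175-128732058 (exons 15 and 16 of 16) and chr16:33947870-33948692 (exons 14 and 15 of 15) in GRCm38, both on the plus strand.

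Facts of the libraries that touch the comparisons come first. Agtr1a was low everywhere (floxed 1.75, Cdh5Cre 1.32 and Sm22Cre 1.21 FPKM). Smooth muscle markers, from Myh11 to Myocd, summed to 7351, 7588 and 7267 FPKM, so the tissue carried the genes its label calls for. In Cdh5Cre 6 of these 8 markers were lower than in floxed and 2 higher, with a median log2 ratio of -0.15. Endothelial markers were higher in Cdh5Cre than in floxed aorta for 9 of 10 (summed 353 and 528 FPKM), fibroblast markers for 7 of 8 (2671 and 4011 FPKM), platelet markers for 6 of 6 (43.6 and 256 FPKM), and erythroid markers for 5 of the 5 analysed (4020 and 25453 FPKM). In Sm22Cre the erythroid markers were also higher for 5 of 5 (9029 FPKM). Heart muscle markers were higher in Cdh5Cre for 7 of 8 (877 FPKM in floxed and 1326 in Cdh5Cre) and lower in Sm22Cre for 8 of 8 (395 FPKM). None of the markers analysed in these lists was at 0 in any group. In whole tissue, fewer cells of a type and less RNA per cell cannot be told apart, and the part of these differences in the values below was not tested.

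In floxed aorta the integrin transcripts were dominated by few genes. Itga8, which with beta1 forms a receptor for Arg-Gly-Asp proteins such as nephronectin, was the most abundant alpha subunit at 929 FPKM, against 252 for Itga9 and 77.5 for Itga5, the fibronectin receptor subunit. Itga3, Itga7 and Itgav followed at 72.9, 54.9 and 50.1 FPKM. Itga1 stood at 23.9, Itga6 at 10.3 and Itga10 at 7.58 FPKM, and Itga4 and Itga11 were near 2 FPKM (2.38 and 2.18). Among beta subunits, Itgb1, the common partner of most alpha subunits, had 608 FPKM and Itgb5, a partner of alphav, had 415. Itgb3, the other vitronectin receptor subunit, had 33.6, and the remaining beta subunits lay below 7 FPKM, Itgb4 highest at 6.98.

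The laminin chains also differed in RNA level, which does not show which chains assemble into trimers. Of the alpha chains, Lama5 had 72.5, Lama4 50.3 and Lama2 26.4 FPKM. Lamb2 was the most abundant laminin chain in the tissue at 222 FPKM, against 7.37 FPKM for Lamb1. Lamc1 had 77.7 and Lamc3 35.5 FPKM. Because the spread is unknown, it cannot be said which neighbours in these orders differ.

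**Figure D1:**
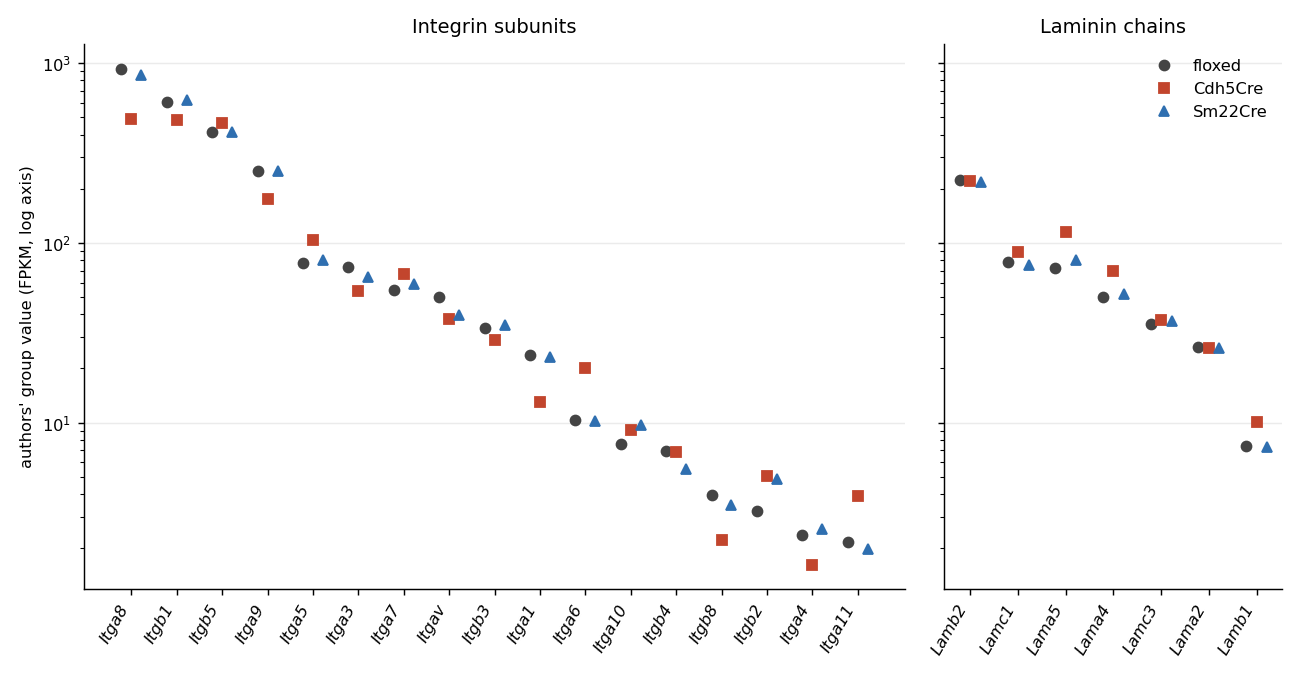
Group values of 24 of the genes analysed, in FPKM on a log axis, ordered by their floxed level within each family; each symbol is the authors' single value for 1 group, so there are no error bars. Floxed (circles) and Sm22Cre (triangles) nearly coincide for most genes, while Cdh5Cre (squares) lies apart for Itga8 (929 and 491 FPKM), Itga1 (23.9 and 12.9), Itga6 (10.3 and 20.1) and Lama5 (72.5 and 115).

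The first comparison asks how aorta of mice with Cdh5-Cre differs from floxed aorta. Itga8 and Itga1 were 1.89-fold and 1.84-fold lower in Cdh5Cre, and Itga6 and Itga11 were 1.96-fold and 1.80-fold higher. The laminin chain Lama5 was higher by 1.58-fold and the beta subunit Itgb8 lower by 1.78-fold. No member reached 2-fold on the log2 scale used, though Itga8 did under quantile normalization (log2 ratio -1.30) and Itga6 once a trend of all genes with transcript length and GC content was removed (1.05). Of the 4 most abundant integrin genes, Itga8, Itgb1 and Itga9 were lower and Itgb5 was not.

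Among the subunits that bind Arg-Gly-Asp proteins, Itga8 had group values of 929 FPKM (floxed), 491 (Cdh5Cre) and 853 (Sm22Cre). It was 1.89-fold lower in Cdh5Cre, a log2 ratio of -0.92, the lowest of the 25 genes. Itgav, the shared alpha subunit of the beta3, beta5, beta6 and beta8 receptors, had 50.1, 37.7 and 39.9 FPKM, so it was low in both Cre groups. Its log2 ratio was -0.40 in Cdh5Cre and -0.32 in Sm22Cre, the latter being the lowest of the 25 in that comparison. Itga5 went the other way, with 77.5, 103 and 80.7 FPKM and a log2 ratio of 0.41 in Cdh5Cre. The ratio of Itga8 to Itga5 was therefore 12.0 in floxed, 4.76 in Cdh5Cre and 10.6 in Sm22Cre aorta.

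The collagen receptors split. Itga1, which with beta1 binds basement membrane collagen and is known from smooth muscle, had 23.9, 12.9 and 23.1 FPKM in floxed, Cdh5Cre and Sm22Cre. It was 1.84-fold lower in Cdh5Cre (log2 ratio -0.83). Itga11, a receptor of fibrillar collagen known from fibroblasts, had 2.18, 3.92 and 1.98 FPKM. It was 1.80-fold higher in Cdh5Cre (log2 ratio 0.63), at a low level in every group. Itga10 had 7.58, 9.05 and 9.70 FPKM, higher in both Cre groups by less than 1.5-fold, and the ratio of Itga1 to Itga11 was 11.0 in floxed and 3.30 in Cdh5Cre aorta.

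The laminin receptors held the highest ratio of the family. Itga6, which pairs with beta1 or beta4 and is known from endothelium and platelets, had 10.3, 20.1 and 10.2 FPKM. It was 1.96-fold higher in Cdh5Cre than in floxed (log2 ratio 0.91), and its floxed and Sm22Cre values were nearly equal. Itga7, a laminin receptor known from muscle, had 54.9, 67.3 and 59.1 FPKM (log2 ratio 0.29 in Cdh5Cre). Itga3 had 72.9, 53.9 and 64.4 FPKM and was lower in Cdh5Cre (log2 ratio -0.43). Itga6 thus stood at 0.14 of Itga3 in floxed and at 0.37 in Cdh5Cre aorta.

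Itga9 and Itga4, related subunits that bind tenascin and VCAM-1 among other ligands, were both lower in Cdh5Cre by less than 1.5-fold. Itga9 had 252, 175 and 250 FPKM (log2 ratio -0.52), and Itga4 had 2.38, 1.62 and 2.57 FPKM (log2 ratio -0.37). Of the 6 leukocyte integrin subunits, Itgb2 alone passed the 1 FPKM filter, with 3.22, 5.06 and 4.84 FPKM. It was higher in both Cre groups, by log2 ratios of 0.52 and 0.47, and the latter was the highest of the 25 genes in Sm22Cre.

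The beta subunits had log2 ratios from -0.62 (Itgb8) to 0.52 (Itgb2) in Cdh5Cre. Itgb1 had 608, 482 and 626 FPKM in floxed, Cdh5Cre and Sm22Cre aorta, a log2 ratio of -0.34 in Cdh5Cre. Itgb5 had 415, 462 and 414 FPKM (log2 ratio 0.16), a direction that turned to -0.30 under quantile normalization. Itgb3 had 33.6, 28.6 and 34.9 FPKM (log2 ratio -0.22). Itgb8, which with alphav binds latent TGF-beta, had 3.93, 2.21 and 3.49 FPKM and was the only beta subunit past 1.5-fold on the log2 scale used. With a pseudocount of 0.1 FPKM in place of 1, Itgb2 passed it too, at 0.63. Itgb4, the hemidesmosome subunit that pairs with alpha6, had 6.98, 6.87 and 5.54 FPKM, so it did not follow Itga6 and was lowest in Sm22Cre (log2 ratio -0.29 there).

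Laminin chains were higher or level in Cdh5Cre. Lama5 had 72.5, 115 and 80.5 FPKM in floxed, Cdh5Cre and Sm22Cre (log2 ratio 0.65 in Cdh5Cre), and Lama4 had 50.3, 69.5 and 52.2 FPKM (log2 ratio 0.46). Lama2, the chain of muscle basement membrane, had 26.4, 26.0 and 25.9 FPKM. The ratio of Lama5 to Lama2 was accordingly 2.74 in floxed, 4.41 in Cdh5Cre and 3.11 in Sm22Cre aorta. Lamb1 had 7.37, 10.0 and 7.31 FPKM (log2 ratio 0.40), while Lamb2, the prevailing beta chain, had 222, 221 and 218 FPKM (log2 ratio -0.01, and -0.23 under quantile normalization). Lamc1, the gamma chain of most laminins, had 77.7, 88.4 and 74.9 FPKM (log2 ratio 0.18). Lamc3 had 35.5, 37.0 and 36.7 FPKM.

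By count, 3 of the 25 genes were higher by 1.5-fold in Cdh5Cre (Itga6, Itga11 and Lama5), beside 8.34% of all genes analysed. The count of lower members was also 3 (Itga8, Itga1 and Itgb8), beside 6.02% of all genes. A 2-fold difference in either direction was seen in 1.9% of all genes and in no member. Of the 17 integrin subunits, 7 were higher and 10 lower to any extent, with a median log2 ratio of -0.22, and of the 8 laminin chains 6 were higher and 2 lower, with a median of 0.20. The median over all genes was 0.02. The split of integrin calls, 2 higher and 3 lower, became 2 and 5 under quantile normalization, which added Itga9 and Itgb1, and Lama5 then fell short of 1.5-fold (log2 ratio 0.46).

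**Figure D2:**
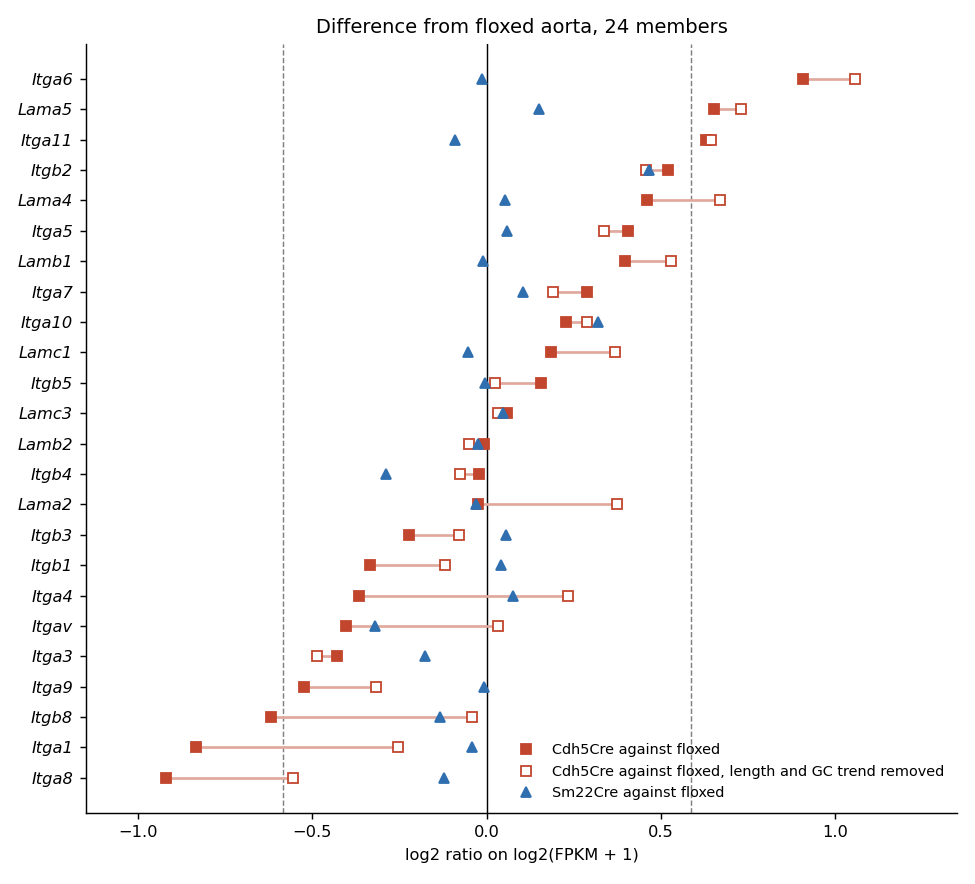
Log2 ratio to floxed aorta, on log2(FPKM + 1), of 24 of the genes analysed: Cdh5Cre as deposited (filled squares), Cdh5Cre with the length and GC trend of all genes removed (open squares) and Sm22Cre (triangles); dashed lines mark 1.5-fold. Itga8, Itga1 and Itgb8 lie left of the line as deposited and inside it with the trend removed, whereas Itga6, Lama5 and Itga11 lie right of it both ways, and all triangles lie inside.

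A slope with transcript length and GC content ran through the whole transcriptome in Cdh5Cre, and only some of these differences followed it. Over 12317 protein-coding genes, the Cdh5Cre to floxed log2 ratio was lower for long transcripts (Spearman rho -0.58 across genes) and higher for GC-rich ones (rho 0.53), and a smooth surface in both accounted for 44.8% of its variance. The surface accounted for 3.78% in Sm22Cre against floxed. Over the 25 members the log2 ratio in Cdh5Cre had a rho of 0.48 with GC content and of -0.39 with transcript length. Over the 17 integrin subunits the values were 0.52 and -0.68. These rank correlations are descriptions across genes, which share the same libraries.

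The 3 genes called lower were AT-rich, while some other lower members were not. Transcript GC content was 44.0% for Itga8, 42.8% for Itga1, 40.4% for Itgb8, 43.6% for Itgav, 41.1% for Itga4 and 44.8% for Itgb1, against a median of 50.4% for all genes. Itga9, Itgb3 and Itga3, lower by less than 1.5-fold, had 51.6%, 52.1% and 57.9%, and the laminin chains ranged from 47.7% to 59.9%. The genes called higher had 59.9% for Lama5, 55.5% for Itga11 and 48.9% for Itga6. Their transcripts had 11388, 4969 and 4310 bases, and those of Itga8, Itga1 and Itgb8 had 5812, 10967 and 8403. The median of all genes was 3120 bases. With the trend removed, the log2 ratio in Cdh5Cre was -0.56 for Itga8, -0.25 for Itga1 and -0.04 for Itgb8, so all 3 lower calls ended. Itgav and Itga4 turned from lower to higher, at 0.03 and 0.23, and the integrin median turned from -0.22 to 0.03. The higher calls remained, at 1.05 for Itga6, 0.73 for Lama5 and 0.64 for Itga11, and Lama4 passed 1.5-fold at 0.67. The laminin median went from 0.20 to 0.37, and Lama2 from -0.02 to 0.37. Whether the slope arose in the tissue or in the libraries was not tested.

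**Figure D3:**
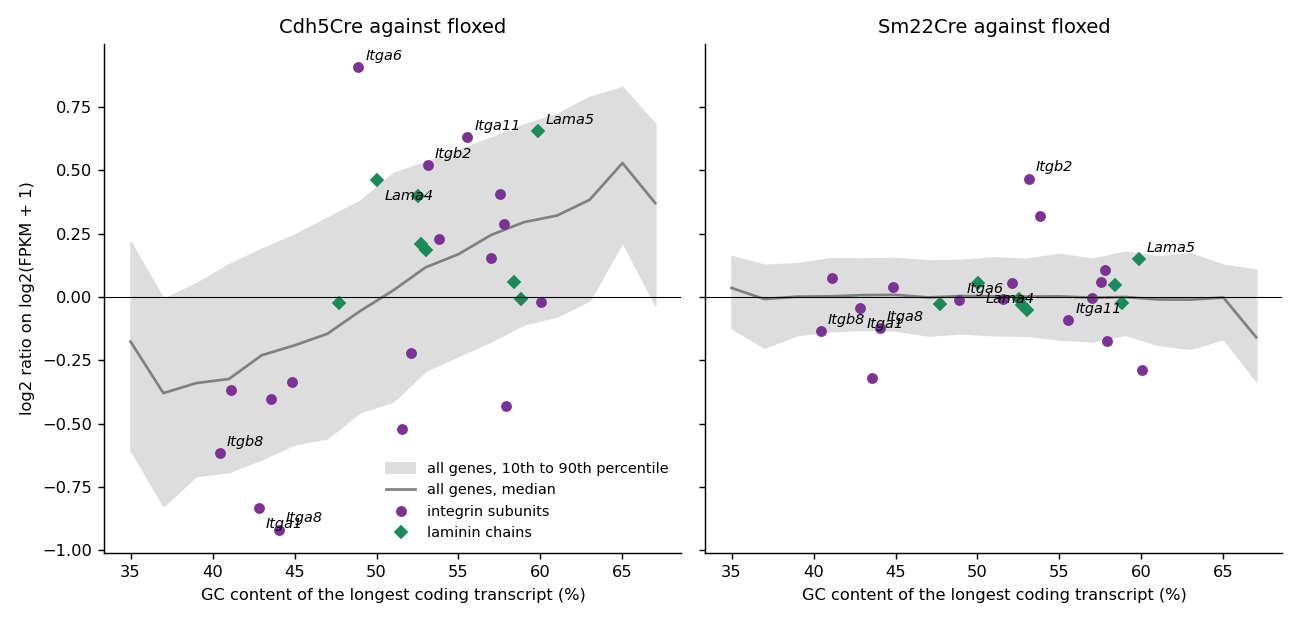
Log2 ratio to floxed aorta against GC content of the longest coding transcript, for integrin subunits (circles) and laminin chains (diamonds), over the median (line) and the 10th to 90th percentile (band) of all protein-coding genes in bins of GC content. In Cdh5Cre (left) the band itself rises with GC content, with Itga8, Itga1, Itga9 and Itga3 below it. Itga6, Itga11 and, narrowly, Lama4 lie above it. In Sm22Cre (right) it is flat and narrow, with Itgb2 and Itga10 above it, Itgav and Itgb4 below it, and Itga3 and Itgb8 at its lower edge.

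Gene loci add a limit for some members. The authors' table lists the called genes on mm9 at chr2:12028259-12232927 (Itga8), chr13:115748287-115892172 (Itga1), chr12:120396495-120477275 (Itgb8), chr2:71583673-71696473 (Itga6), chr9:62525633-62631789 (Itga11) and chr2:179911078-179960564 (Lama5). Of the 25 genes, 12 stood alone at their listed locus, among them Itgb8, Itga11 and Lama5, and 13 shared it with another gene. Itga8 shared its locus with E030013I19Rik, at 133, 125 and 142 FPKM in floxed, Cdh5Cre and Sm22Cre. Itga1 shared its locus with Pelo, at 6.05, 8.84 and 5.49 FPKM. Fragments could be divided between such neighbours, and the use of strand in counting is not stated in the labels. The genes at the Itga6 locus were all listed at 0 in every group. A status of FAIL, which the authors' table gives beside an estimate, was listed for Itga7, Itga10 and Lama2 in all 3 pairs of groups, and for Itga3 and Lamb1, among others, in both pairs with Cdh5Cre.

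The second comparison asks how aorta with Sm22-Cre differs from floxed aorta, and here most members, like most genes, were near their floxed level. Of the 25 genes, 21 were within 1.2-fold of floxed, beside 92.2% of all genes analysed. In Cdh5Cre against floxed, 9 of 25 were, beside 48.1% of all genes. On the log2 scale used, none of the 25 was higher by 1.5-fold in Sm22Cre, beside 0.619% of all genes analysed. None was lower by 1.5-fold, beside 0.921% of all genes. A 2-fold difference was seen in 0.633% of all genes. The 4 genes beyond 1.2-fold were Itgb2 (log2 ratio 0.47) and Itga10 (0.32) on the higher side, and Itgav (-0.32) and Itgb4 (-0.29) on the lower. The median log2 ratio was -0.01 for integrin subunits and -0.02 for laminin chains, both of which became 0.03 with the trend removed, and 0.01 for all genes. The heart muscle markers were lower in this group, while Itga7, also known from striated muscle, had 59.1 FPKM against 54.9 in floxed.

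The third comparison sets both Cre groups against each other. Itga8 and Itga1 were higher in Sm22Cre than in Cdh5Cre by 1.74-fold and 1.79-fold (log2 ratios 0.80 and 0.79), 2 of 25 genes beside 4.34% of all genes analysed. Itga6 and Itga11 were lower by 1.98-fold (log2 ratios -0.92 and -0.72, respectively), again 2 of 25 genes beside 7.58% of all genes. A 2-fold difference was reached by 1.64% of all genes and by no member on the log2 scale used; Itga8 reached 1.12 under quantile normalization and Itga6 reached -1.06 with the trend removed. All 8 laminin chains were lower in Sm22Cre than in Cdh5Cre, with a median log2 ratio of -0.24, from -0.50 for Lama5 to -0.01 for Lama2. Of all genes analysed, 50.7% were lower in this comparison, and their median was -0.01. Lama2, Lamb2 and Lamc3, all close to 0, turned higher under quantile normalization, and with the trend removed 6 of 8 were lower. The integrin median was 0.09, and -0.02 with the trend removed, where Itga8 had a log2 ratio of 0.45 and Itga1 of 0.27. This comparison shares the Cdh5Cre values with the first, so it is no second measurement of the same differences.

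Summed over each class, Itga8 held a smaller share of the alpha subunits in Cdh5Cre than in the other groups. The 16 alpha subunits had summed values of 1484 FPKM (floxed), 977 (Cdh5Cre) and 1397 (Sm22Cre), of which Itga8 made 62.6%, 50.2% and 61.0%. Without Itga8 the sums were 555, 486 and 544 FPKM. The beta subunits summed to 1072, 988 and 1090 FPKM, with Itgb1 at 56.8%, 48.8% and 57.4% and Itgb5 at 38.7%, 46.8% and 38.0%. The ratio of alpha to beta RNA was thus 1.38, 0.99 and 1.28 in the same order.

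Among laminins the alpha chain sums were furthest apart, at 150, 211 and 159 FPKM, while the beta chains summed to 230, 231 and 226 and the gamma chains to 114, 127 and 113. Lama5 made 48.4%, 54.4% and 50.6% of the alpha chains. Lamb2 made 96.7%, 95.6% and 96.7% of the beta chains, and Lamc1 made 68.0%, 69.7% and 66.5% of the gamma chains. The make-up of the beta and gamma classes was nearly the same in the 3 groups, and the alpha chains differed, with Lama2 at 17.7% of their sum in floxed and 12.3% in Cdh5Cre.

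**Figure D4:**
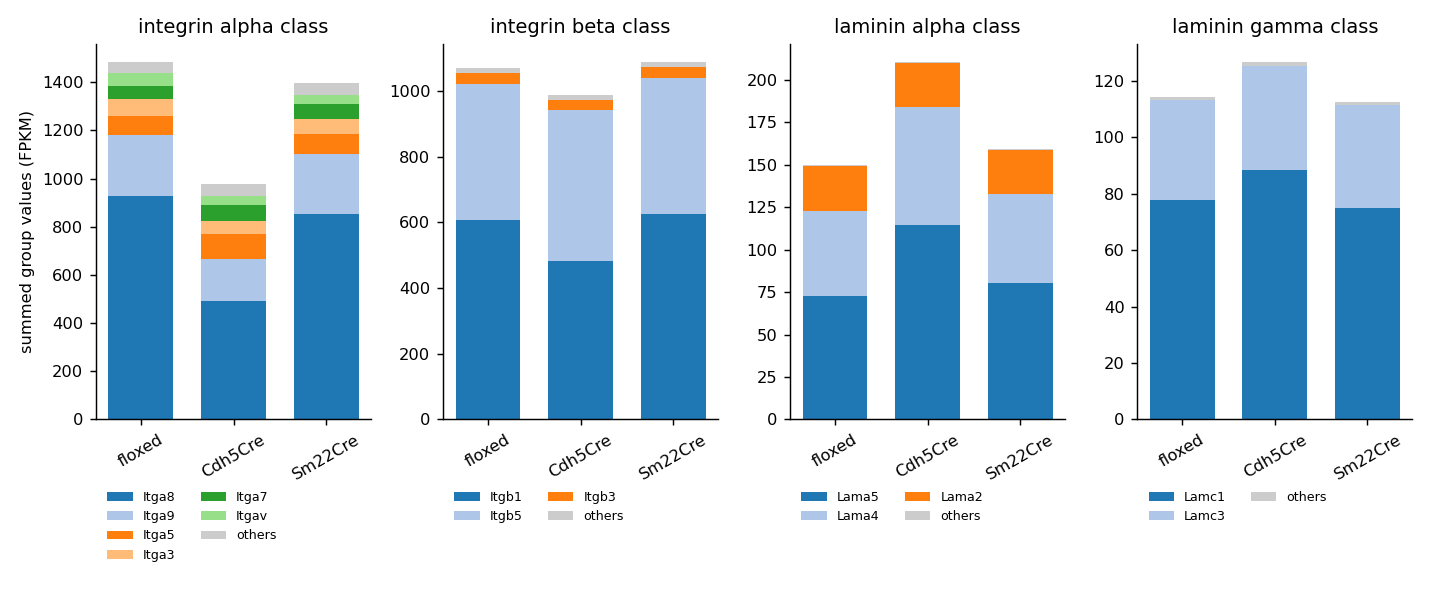
Summed group values in FPKM of the integrin alpha, integrin beta, laminin alpha and laminin gamma classes, each bar being 1 group and each colour 1 gene; the laminin beta class, almost all Lamb2, is not drawn. The alpha integrin bar is shorter in Cdh5Cre (977 FPKM against 1484), mostly through Itga8, and the laminin alpha bar is taller (211 against 150).

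The partners of the family are given from 4 lists. Of 25 adhesion adaptors, the proteins that join integrin tails to actin, 23 were analysed. In Cdh5Cre against floxed, 12 were higher and 11 lower, with a median log2 ratio of 0.02, and 2 of 23 passed 1.5-fold upward and 1 downward, near the shares of all genes (8.34% and 6.02%). Fermt3, the kindlin of blood cells, had 2.70, 8.81 and 4.20 FPKM (floxed, Cdh5Cre and Sm22Cre). Parvb, a parvin that binds integrin-linked kinase, had 6.19, 16.2 and 8.06 FPKM. Both were past 2-fold in Cdh5Cre, in the group with the higher platelet markers, where neutrophil markers summed to 41.2 FPKM against 3.41 in floxed; their part in these values was not tested. Vcl, vinculin, which binds talin and actin, was lower, with 75.7, 42.5 and 75.5 FPKM (log2 ratio -0.82, and -0.61 with the trend removed).

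The other receptors of laminin include the dystrophin complex, which joins laminin to actin through dystroglycan. All 14 were analysed, 6 higher and 8 lower in Cdh5Cre, with a median of -0.12. Past 1.5-fold, 3 of 14 were lower, beside 6.02% of all genes. Sgcd, delta-sarcoglycan, had 65.3, 31.4 and 58.2 FPKM (log2 ratio -1.04), Dmd, dystrophin, had 93.2, 48.0 and 86.8 FPKM (-0.94), and Dag1, dystroglycan, had 94.8, 60.3 and 88.0 FPKM (-0.64). With the trend removed Sgcd stayed past 1.5-fold at -0.81, while Dmd and Dag1 stood at -0.24 and -0.53.

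Of 14 basement membrane partners, all analysed, 5 were higher and 9 lower in Cdh5Cre, with a median of -0.06, and Hspg2, the heparan sulfate proteoglycan perlecan, was the sole call, with 353, 562 and 325 FPKM (log2 ratio 0.67); 1 call in 14 is near the 8.34% of all genes. The status FAIL was listed for Hspg2, Dmd and Dag1 in all 3 pairs of groups. Of 16 integrin ligands, 14 were analysed, 9 higher and 5 lower, with a median of 0.12. Icam2, an endothelial ligand of leukocyte integrins, was the sole call, 1 in 14, with 20.8, 38.2 and 26.2 FPKM (log2 ratio 0.85, and 0.52 with the trend removed). As a plain ratio of low values, the ligand Vtn was 2.23-fold higher in Cdh5Cre than in floxed (log2 ratio 0.57, short of the limit). In Sm22Cre against floxed no analysed gene of the 4 lists reached 1.5-fold on the log2 scale used. As plain ratios of low values, Fermt3 was 1.56-fold higher and the ligand Vtn 1.81-fold lower. In Sm22Cre against Cdh5Cre, Vcl, Dmd and Sgcd were higher and Fermt3, Parvb, Hspg2 and the ligand Vtn, vitronectin, were lower by 1.5-fold; Vtn was at 1.44 FPKM or below in every group.

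**Figure D5:**
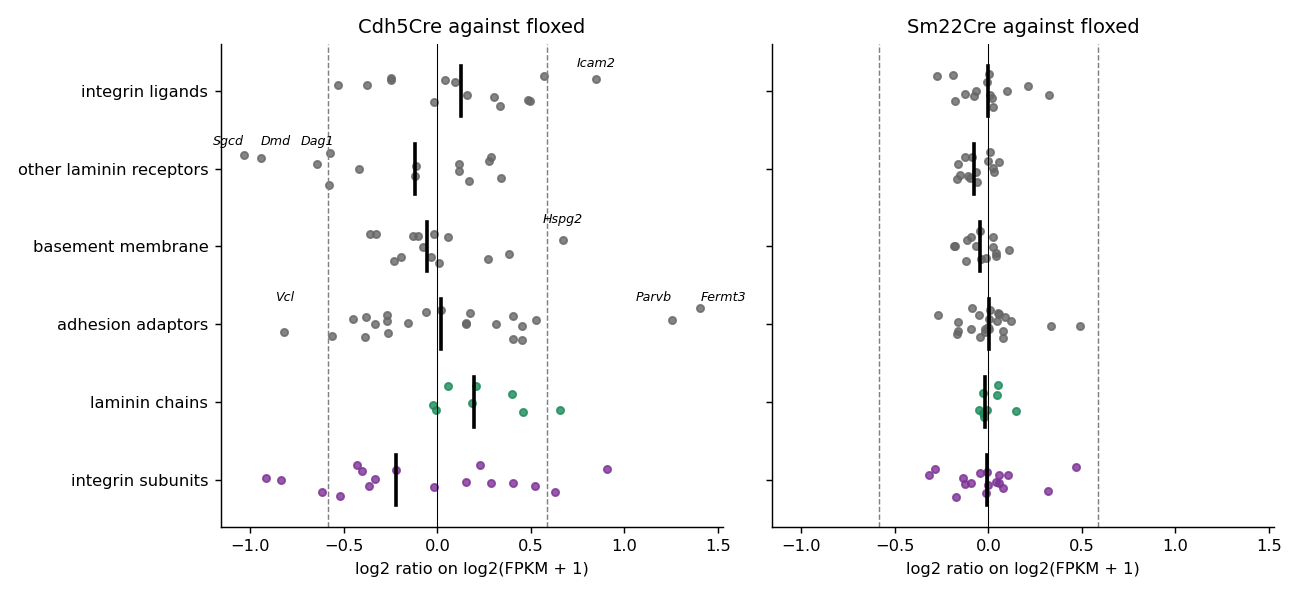
Log2 ratio to floxed aorta, on log2(FPKM + 1), of every analysed gene in the integrin and laminin families and in the 4 partner lists, 1 point per gene, spread vertically for legibility; black bars are medians and dashed lines 1.5-fold. Partners past 1.5-fold in Cdh5Cre (left) are named, and in Sm22Cre (right) no point passes either line.

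The remaining 10 members lay below 1 FPKM in all 3 groups, the highest at 0.93. They were the collagen receptor subunit Itga2, the leukocyte subunits Itgad, Itgae, Itgal, Itgax and Itgb7, the epithelial subunit Itgb6, and the laminin chains Lama1, Lama3 and Lamb3, also known mainly from epithelia. No ratio is read from them.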

How the data were processed

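RNA of 9 aortas, 3 a group, was sequenced from poly-A-selected libraries, per the labels' protocols. Build mm9, Cufflinks 1.3.0, TopHat2 2.0.8, SAMtools 0.1.7 and Bowtie2 2.1.0 are named, per the submitters' processing notes, with no role or option. For the annotation nothing is given in the sources used here. The authors deposited, per the file headers, FPKM for pairs of groups, 1 value per gene and group. With no value per library, the planned limma fit could not be made, and a rule of size (1.5-fold) replaced it; depth, SD and p-values cannot be had.

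Genes at 1 FPKM or more in at least 1 group were analysed, without 7 genes of status HIDATA. Since a group appears in 2 pairs, its values were compared between them, and 15 genes, 0 of them members, had unequal ones. Starts were taken as counted from 0, so 1 was added. Symbols (32638 of 37668 genes), transcript length, GC content and sequences came from GENCODE M21 on GRCm38, never by mm9 position. A quadratic surface in log length and GC content of the longest coding transcript was fitted to the log2 ratios and subtracted as an alternative. The code was checked on simulated data with a linear trend, a form the surface contains, and with changed genes drawn at random. That check cannot show whether the surface also removes real differences tied to length or GC content. Python 3.11.15, pandas 2.3.3 and numpy 2.4.6 were used.

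Members at 1 FPKM or more were named, except 1 whose values are not reported here; of partner lists, members past 1.5-fold. The members and lists were chosen with earlier results of these data known. The other settings tried were a pseudocount of 0.1 FPKM, no filter, a filter at 5 FPKM, quantile normalization, median centring, trend removal, status OK only, omission of leukocyte integrins and, chosen after seeing the data, members alone at their locus.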

Additional observations from a re-analysis of the deposited data

How the results depend on the processing

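A family median was listed as changed when it shifted by more than 0.1 on the log2 scale or when its sign changed, however small the shift. A count was listed when it left 1.5 times its value. In Cdh5Cre against floxed, the integrin median of -0.22 was -0.014 with no filter, -0.12 with a filter at 5 FPKM, 0.025 with the length and GC trend removed and -0.033 over members alone at their locus. The laminin median of 0.20 was 0.094 with no filter, 0.085 with quantile normalization, 0.37 with the trend removed and 0.33 over members alone at their locus. The 2 higher integrin subunits became 1 at 5 FPKM and 1 alone at their locus. The 3 lower became 5 with quantile normalization, 0 with the trend removed and 1 alone at their locus. The 1 higher laminin chain became 0 with quantile normalization and 2 with the trend removed. In Sm22Cre against floxed, with the trend removed and over members alone at their locus, the integrin median of -0.01 became 0.026 and 0.019, and the laminin median of -0.02 became 0.031 and 0.014. In Sm22Cre against Cdh5Cre, the integrin median of 0.09 was 0.27 with quantile normalization and -0.021 with the trend removed, and the laminin median of -0.24 was -0.080 with no filter and -0.36 with the trend removed. There the 2 higher integrin subunits became 4 at a pseudocount of 0.1 FPKM, 4 with quantile normalization, 0 with the trend removed and 0 alone at their locus. The 2 lower became 1 at 5 FPKM and 1 alone at their locus, and 1 laminin chain became lower with the trend removed. A stricter filter or fewer members changes which genes enter; for the other settings the cause was not tested. Median centring, status OK only and omission of the leukocyte integrins changed no family median or count by these limits. Leaving out replicates was not run, since the table holds group values. No paired analysis was possible because the groups share no replicate number and the values are per group. Depth is unknown, so genes near 1 FPKM such as Itga4 and Itga11 carry an error that cannot be stated.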

Other observations

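Itga2b and Itgam, the integrin alpha subunits outside the naming rule, differed from each other. Itga2b, the platelet fibrinogen receptor subunit that pairs with beta3, had 4.95, 20.5 and 8.58 FPKM (floxed, Cdh5Cre and Sm22Cre), log2 ratios to floxed of 1.85 and 0.69. Its partner Itgb3 was not higher in Cdh5Cre, and the ratio of Itga2b to Itgb3 was 0.15, 0.72 and 0.25. The 6 platelet markers were higher in the same order, summing to 43.6, 256 and 83.0 FPKM. Itgam, known from neutrophils and macrophages, had 2.75, 2.64 and 3.11 FPKM. The neutrophil markers summed to 3.41, 41.2 and 12.2 FPKM and the macrophage markers to 157, 178 and 165 FPKM. In Cdh5Cre 4 of 8 macrophage markers were higher than in floxed and 4 lower, with a median log2 ratio of -0.04. Schwann cell markers were higher in Cdh5Cre than in floxed for 6 of 6, with a median log2 ratio of 0.43, and mesothelial and epithelial markers were lower in Sm22Cre for 6 of 6, with a median of -0.40.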
